A study of Mus musculus with 6 samples.

Results

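Expression of 10 genes of the type 2 alarmin and innate lymphoid system was followed in lungs that lack T and B lymphocytes by genotype. The genes, with the Entrez Gene ID under which each is listed, are the alarmins Il33 (77125) and Tslp (53603), the receptor chains Il1rl1 (17082), Crlf2 (57914) and Il7r (16197), the transcription factors Gata3 (14462) and Rora (19883), and the effectors Areg (11839), Il13 (16163) and Il5 (16191). They were taken by name, for their function, out of the 25860 genes of the deposited count table, and all 10 are in it. RNA was sequenced from normal-looking lung of 3 RAG1-/- mice, called replicates 1 to 3, and of 3 mice with the genotype RAG1-/-Sgo1-/+, called replicates 4 to 6, at 1 library per mouse. All 6 mice were untreated, 12 months old and homozygous for the loss of Rag1, the recombinase that assembles antigen receptors. They came from the F2 of a cross between RAG1-/- and Sgo1-/+ mice on the C57BL/6 background, with both sexes used in the study. By label the groups differ by the loss of 1 copy of Sgo1, a protector of centromeric cohesion whose shortage makes chromosomes unstable. The tissue is bulk lung, so fewer cells of a type and less RNA per cell cannot be told apart in any value that follows.

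Library totals lay between 3205822 and 9366774 reads counted on genes, and 3 reads, taken here as the smallest amount detected, equal 0.320 to 0.936 CPM (the count divided by the library total and scaled up). The targeted genes had few reads: Sgo1 had 2 to 6 in RAG1-/- and 0 to 6 in RAG1-/-Sgo1-/+ and so cannot show a missing copy at this depth, and Rag1 had 10 to 24 and 8 to 12. Several libraries stand apart. Replicate 2 goes against its label, with 1853 reads of the immunoglobulin light chain gene Igkc against 0 to 8 in the others. Replicate 6 has the lowest total and differs from the others in the type 2 genes described further on, and replicate 1 is the only one with abundant Xist (7717 reads against 4 to 8). Values without replicate 2 and without replicate 6 are therefore given beside the members that were tested, and those without replicate 1 at the end. Xist is a transcript of female cells, so its reads mark replicate 1 as female and the other libraries as male. Sex is thus not balanced between the groups, and the fits did not include it.

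Barrier cells of the lung signal damage with alarmins. IL-33 is a nuclear protein of alveolar type 2 cells, fibroblasts and endothelium that is released when cells are injured, and TSLP is a cytokine secreted by epithelium and stroma. Both act on group 2 innate lymphoid cells (ILC2), which develop without Rag1 and need the transcription factors GATA3 and RORα. IL-33 binds ST2, encoded by Il1rl1, and TSLP binds a pair of chains, its own receptor (Crlf2) and the IL-7 receptor α chain (Il7r). Activated ILC2 secrete IL-13, which drives mucus and alternatively activated macrophages, IL-5, which sustains eosinophils, and amphiregulin (Areg), an epidermal growth factor family ligand of tissue repair.

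The sequences before the transcription starts are shown for a ligand, a receptor and an effector gene whose levels differed: Il33 was abundant, Il1rl1 was scarce and Il13 had no read. A link between these sequences and the levels was not tested. Of the 10 genes, 9 had an entry in the RefSeq promoter table (GRCm38.p6), with 11 starts in all. Il33 and Il1rl1 have 2 starts each, and the count table gives a single value per gene that pools their transcripts, including the membrane-bound and soluble forms of ST2. Each line gives the 250 bases that end just before a start, on the strand of the gene. Capitals mark the letters AGATAA or TGATAA, called GATA letters here, and the TATA box letters TATAAA, each searched on both strands. Other forms of the GATA motif, such as AGATAG, were not searched, so a window without capitals may still hold them.
Il33, first start, chr19:29924863-29925112, + strand: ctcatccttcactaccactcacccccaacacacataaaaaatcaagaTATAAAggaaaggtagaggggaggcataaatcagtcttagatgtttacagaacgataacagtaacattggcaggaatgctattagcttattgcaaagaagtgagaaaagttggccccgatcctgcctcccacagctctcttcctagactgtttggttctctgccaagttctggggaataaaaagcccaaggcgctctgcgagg
Il33, second start, chr19:29945540-29945789, + strand: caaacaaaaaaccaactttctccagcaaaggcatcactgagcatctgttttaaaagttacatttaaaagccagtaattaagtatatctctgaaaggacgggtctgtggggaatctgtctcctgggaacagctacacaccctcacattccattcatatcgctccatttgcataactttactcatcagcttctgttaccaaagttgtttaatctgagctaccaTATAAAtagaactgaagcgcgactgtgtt
Il1rl1, first start, chr1:40429320-40429569, + strand: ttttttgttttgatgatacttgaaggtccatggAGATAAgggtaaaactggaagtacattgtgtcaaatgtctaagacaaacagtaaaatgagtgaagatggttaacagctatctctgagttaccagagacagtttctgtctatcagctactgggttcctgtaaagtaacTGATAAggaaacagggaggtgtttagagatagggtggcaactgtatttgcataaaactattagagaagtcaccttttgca
Il1rl1, second start, chr1:40439379-40439628, + strand: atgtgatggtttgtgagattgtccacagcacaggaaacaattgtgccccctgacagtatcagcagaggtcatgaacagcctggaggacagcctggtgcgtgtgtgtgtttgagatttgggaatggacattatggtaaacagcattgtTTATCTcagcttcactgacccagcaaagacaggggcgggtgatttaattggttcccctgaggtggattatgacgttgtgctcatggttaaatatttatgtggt
Il13, chr11:53634703-53634952, - strand: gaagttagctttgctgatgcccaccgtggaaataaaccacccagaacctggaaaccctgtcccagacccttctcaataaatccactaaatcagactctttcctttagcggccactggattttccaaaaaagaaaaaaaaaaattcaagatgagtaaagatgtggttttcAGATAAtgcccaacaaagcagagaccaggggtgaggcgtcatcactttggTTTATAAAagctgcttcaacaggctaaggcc
The GATA letters stand 217 and 80 bases before the first start of Il1rl1, 103 bases before its second start on the opposite strand, and 81 bases before the start of Il13. They were in 3 of the 11 windows of these genes and in 16.6% of the 32851 windows of all genes. TATAAA stands 203 bases before the first start of Il33, 29 bases before its second start and 29 bases before the start of Il13, where an overlapping match on the opposite strand extends the capitals, and it was in 4 of the 11 windows (the other is that of Areg) and in 12.4% of all windows. These are matches of letters and not measured sites.

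Levels spanned a wide range, with Il33 at the top and Il5, Rora and Il13 at the bottom. Per kilobase of merged exon length, so that genes can be compared, Il33 had a mean level of 59.8 CPM per kb over the 6 libraries. Crlf2 followed at 9.84, Areg at 6.59, Tslp at 4.18, Il7r at 2.79, Gata3 at 2.73 and Il1rl1 at 0.971 CPM per kb. Il5 (0.124), Rora (0.103) and Il13 (0) came last. The lengths come from a later annotation than the one the reads were counted on, and the earlier gene models were not used here, so the place of Rora, the longest of the 10 by these lengths, is uncertain. The libraries of Il33 lay wholly above those of Crlf2, those of Gata3 above those of Il1rl1, and those of Il1rl1 above those of Il5. Crlf2, Areg, Tslp, Il7r and Gata3 overlapped with their neighbours in that order, and Il7r was above Gata3 in 3 of 6 libraries.

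**Figure D1:**
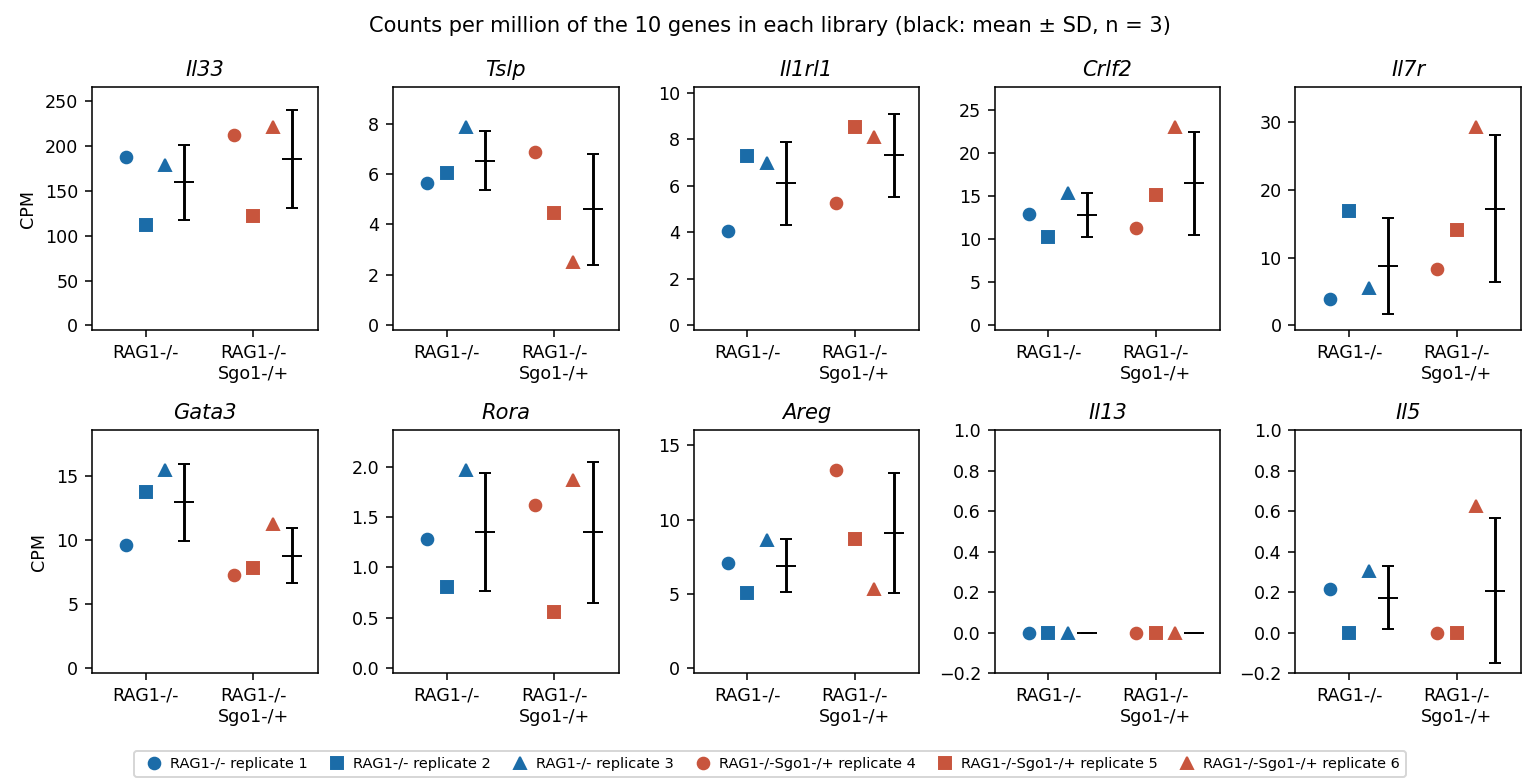
Each panel plots CPM of 1 gene (vertical axis) in the 3 RAG1-/- and the 3 RAG1-/-Sgo1-/+ libraries, with marker shape for the replicate and the mean ± SD in black. Il33 reached 221 CPM, Il13 was at 0 in all 6 libraries, and the groups overlapped in every panel.

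Reads of Il33 numbered 1763, 553 and 1180 in the RAG1-/- lungs and 1053, 660 and 710 in the RAG1-/-Sgo1-/+ lungs. Scaled to library totals these are 188, 112 and 179 CPM against 213, 122 and 221 CPM. Each group held 2 libraries of high and 1 of low Il33, replicates 2 and 5 being the low ones, so that the spread within a group exceeded the difference between groups. The means were 160 ± 41.7 and 185 ± 54.9 CPM (SD, n = 3), with a log2 fold change of 0.21 in RAG1-/-Sgo1-/+ (SE 0.25, adjusted P = 0.905 by the quasi-likelihood test of edgeR over all tested genes). An exact permutation test of CPM gave P = 0.5, where 3 against 3 cannot go below 0.1. The log2 fold change was 0.014 without replicate 2 and 0.067 without replicate 6, and turned to -0.13 without both, while it was 0.44 without replicate 5. The markers of alveolar type 2 cells, 1 source of IL-33, were read beside it. All 8 markers were detected in every library, 0 of them passed an unadjusted P under 0.05 (Sftpc, surfactant protein C, had the lowest), and their summed level ran from 27800 to 33985 CPM in RAG1-/- and from 24218 to 31550 CPM in RAG1-/-Sgo1-/+. Replicates 2 and 5, low in Il33, were at 27800 and 26599 CPM in this sum, but replicate 6, highest in Il33, had the lowest sum of all. The part of these cells in the Il33 level was not tested.

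Tslp, the other alarmin, was read 53, 30 and 52 times in the RAG1-/- lungs against 34, 24 and 8 times in the RAG1-/-Sgo1-/+ lungs. These are 5.66, 6.06 and 7.87 CPM against 6.87, 4.45 and 2.50 CPM. Replicate 6, the highest in Il33, was the lowest in Tslp, and replicate 4 lay within the RAG1-/- range. In edgeR the log2 fold change came to -0.47, with an SE of 0.39 and an adjusted P of 0.872, and permutation of CPM (exact) gave P = 0.3. It was -0.52 without replicate 2, -0.21 without replicate 6 and -0.87 without replicate 4.

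Il1rl1, the receptor of IL-33, was read 38, 36 and 46 times in the RAG1-/- lungs and 26, 46 and 26 times in the RAG1-/-Sgo1-/+ lungs, which gives 4.06, 7.27 and 6.96 CPM against 5.25, 8.52 and 8.11 CPM. It was detected in all 6 libraries, with 1 low library in each group (replicates 1 and 4). The means of 6.10 ± 1.77 and 7.29 ± 1.78 CPM (SD, n = 3) gave a log2 fold change of 0.27 with an SE of 0.35 (edgeR, adjusted P = 0.913), and P = 0.5 by exact permutation. It was 0.41 without replicate 2, 0.20 without replicate 6 and 0.031 without replicate 1. The other chain of the receptor, Il1rap, is shared with the IL-1 receptors and stood at 1.63 to 2.28 CPM per kb, above the 0.588 to 1.24 CPM per kb of Il1rl1. Its own log2 fold change had an adjusted P of 0.989 in edgeR.

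Crlf2, the chain specific to TSLP, had 121, 51 and 102 reads against 56, 82 and 74, which scale to 12.9, 10.3 and 15.4 CPM in RAG1-/- and 11.3, 15.2 and 23.1 CPM in RAG1-/-Sgo1-/+. Replicate 6 was the highest and the other 5 libraries overlapped. The log2 fold change of 0.33 had an SE of 0.28 (edgeR, adjusted P = 0.874), and exact permutation gave P = 0.5. It was 0.21 without replicate 2, 0.036 without replicate 6 and -0.091 without both, and 0.55 without replicate 4.

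Il7r varied most among the detected receptors. Its reads were 37, 84 and 36 for RAG1-/- against 41, 76 and 94 for RAG1-/-Sgo1-/+. In CPM these are 3.95, 17.0 and 5.45 against 8.28, 14.1 and 29.3. Replicate 2 was alone high among RAG1-/- libraries and placed itself between replicates 5 and 6, so that the groups overlapped. The means were 8.79 ± 7.13 and 17.2 ± 10.9 CPM (SD, n = 3), a log2 fold change of 0.99 with an SE of 0.57 (edgeR, adjusted P = 0.839), and exact permutation gave P = 0.4. The log2 fold change was 1.85 when replicate 2 was left out, with an unadjusted P of 0.00576 in edgeR, the lowest of any of the 10 genes under any setting run, and 0.40 without replicate 6. Leaving out replicate 4 gave 1.33, leaving out replicates 2 and 6 together gave 1.26, and the adjusted P of the members ran from 0.595 to 1 over all settings.

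Il7r is also a gene of T cells and developing B cells, so their markers were read beside it. Of 9 T cell markers, 8 had at least 1 read, and their summed level was 2.99, 30.3 and 5.15 CPM in RAG1-/- and 4.85, 6.11 and 21.5 CPM in RAG1-/-Sgo1-/+. Replicates 2 and 6, the highest in Il7r, were thus the highest in T cell markers. Cd8a, a coreceptor of cytotoxic T cells, had 34 reads in replicate 2, 12 in replicate 6 and 0 in the other 4 libraries, while Trat1 was at 0 in all. The 9 B cell markers summed to 920 CPM in replicate 2 and to 20.3 to 32.4 CPM elsewhere, with Ms4a1 at 0 outside replicate 2. Of the 8 B cell markers tested, 5 passed an unadjusted P under 0.05 as lower in RAG1-/-Sgo1-/+, where 2.52% of all tested genes did. Most reads of these markers are in replicate 2. Igkc has been given, Jchain had 942 reads there and 0 to 4 elsewhere, Ighm 1314 against 40 to 76, and Ms4a1 78. Among T cell markers 0 of 8 tested passed, and Cd3g, a chain of the T cell receptor complex, had the lowest P, with 6, 13 and 2 reads against 8, 10 and 16. Natural killer and ILC1 markers went the other way and were lowest in replicates 6 and 2, at 9.05 and 13.5 CPM, against 21.7 to 51.4 CPM in the others. The part of lymphocytes other than ILC2 in the Il7r level was not tested. Replicate 5, next in Il7r, had 6.11 CPM of T cell markers, near the level of replicates 3 and 4.

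**Figure D2:**
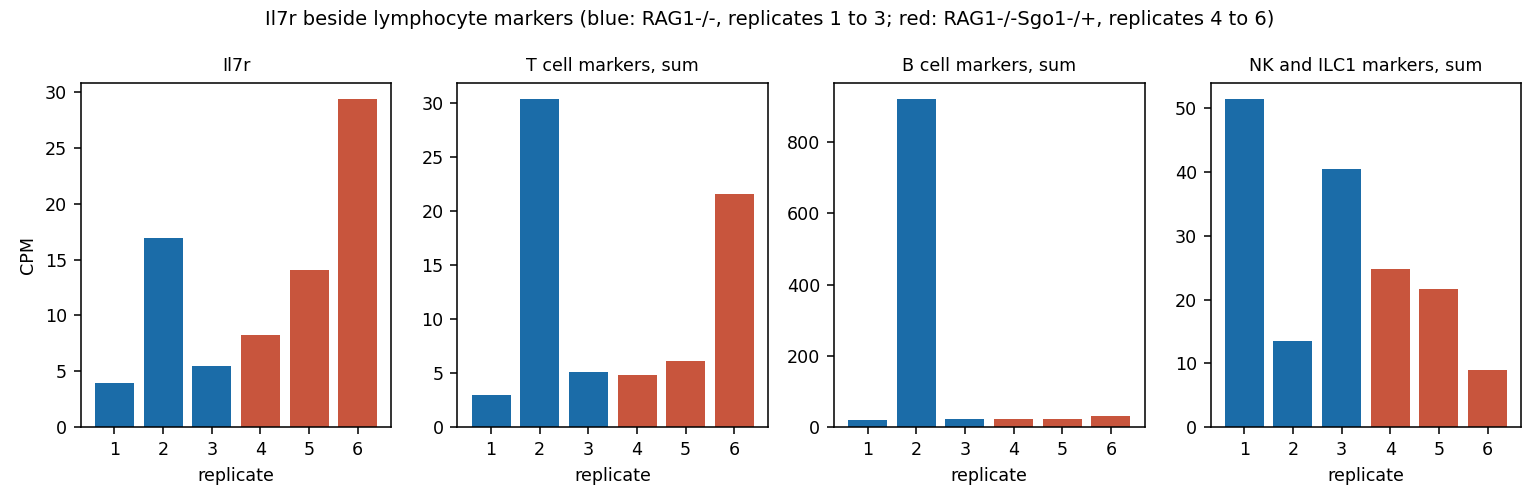
Bars from 0 give CPM in replicates 1 to 6 (horizontal axis) for Il7r and for the summed markers of T cells, B cells, and natural killer (NK) cells with ILC1, in blue for RAG1-/- and red for RAG1-/-Sgo1-/+. Replicates 2 and 6 are the 2 highest in Il7r (17.0 and 29.3 CPM) and in T cell markers (30.3 and 21.5 CPM).

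Gata3, the transcription factor that specifies ILC2 and is also used by T cells and some epithelia, was read 90, 68 and 102 times in the RAG1-/- lungs and 36, 42 and 36 times in the RAG1-/-Sgo1-/+ lungs. Scaled, these are 9.61, 13.7 and 15.4 CPM against 7.27, 7.78 and 11.2 CPM. Replicate 6 overlapped with replicate 1, and every other RAG1-/-Sgo1-/+ library lay below every RAG1-/- library. The means of 12.9 ± 3.0 and 8.76 ± 2.15 CPM (SD, n = 3) gave a log2 fold change of -0.57 with an SE of 0.28. The unadjusted P was 0.0692 and the adjusted P 0.832 in edgeR, and exact permutation gave P = 0.2. With 1 library removed at a time it lay between -0.77 and -0.42, at -0.52 without replicate 2 and -0.77 without replicate 6. Gata3 and Il7r, both ILC2 genes, therefore had differences of opposite sign, neither of which passed the adjusted threshold.

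Rora was near the limit of detection, with counts of 12, 4 and 13 for RAG1-/- and 8, 3 and 6 for RAG1-/-Sgo1-/+. These are 1.28, 0.808 and 1.97 CPM against 1.62, 0.556 and 1.87 CPM. Replicate 5 was lowest and replicate 3 highest, and the groups overlapped. The log2 fold change of -0.060 had an SE of 0.70 (edgeR, adjusted P = 0.994), and exact permutation gave P = 1. It was -0.30 without replicate 2 and -0.34 without replicate 6, and its sign turned when replicate 3 (0.29) or replicate 5 (0.34) was left out.

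Areg was the only effector gene measured above the floor. Its counts were 66, 25 and 57 for RAG1-/- and 66, 47 and 17 for RAG1-/-Sgo1-/+. These are 7.05, 5.05 and 8.63 CPM against 13.3, 8.71 and 5.30 CPM. Replicate 4 was highest, and replicate 6 lay next to the lowest, replicate 2. The groups overlapped, with a log2 fold change of 0.41 and an SE of 0.36 (edgeR, adjusted P = 0.874), and exact permutation gave P = 0.4. It was 0.24 without replicate 2, 0.66 without replicate 6 and 0.037 without replicate 4. Areg is also made by epithelium and myeloid cells, and the cells behind these reads were not separated.

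Il13 had 0 reads in each of the 6 libraries. A count of 0 allows up to 3 reads, which is 0.320 to 0.936 CPM in a single library and 0.0870 CPM over the 34478657 reads of all libraries, for counting error only. Il5 was read 2, 0 and 2 times in the RAG1-/- lungs and 0, 0 and 2 times in the others, so that no library passed the floor. Neither gene was tested and no fold is given. Replicate 6, whose type 2 response genes are described below, had 0 reads of Il13 and 2 of Il5. Among the other cytokines, Il4 had 4, 2 and 1 reads in RAG1-/- and 0 in every RAG1-/-Sgo1-/+ library. With 7 reads in sum it was under the filter of 10 and was not tested, so no difference is read from it. Il9 and the alarmin Il25 had 0 in all 6. Csf2, which encodes GM-CSF, was found in every library, at 69, 4 and 55 reads against 22, 18 and 24, with the groups overlapping (log2 fold change -0.18, SE 0.64, adjusted P = 0.976 in edgeR).

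Of the 10 genes, 8 reached 10 reads in sum and were tested among 17231 genes. At an adjusted P under 0.05 in edgeR and at least 2-fold, 0 of the 8 were called, against 0% of all tested genes, and DESeq2 called 1 gene in all, which is no member. At an unadjusted P under 0.05, 0 of the 8 passed, against 5.66% of all tested genes (976), or 1.35% where a 2-fold difference was asked as well. DESeq2, limma-voom and the exact test of edgeR also gave 0 members at an unadjusted P under 0.05. The groups did not overlap in 0 of the 8, where 11.8% of all tested genes had groups apart (6.24% higher and 5.54% lower). The fold changes of the 8 had both signs, 5 higher and 3 lower in RAG1-/-Sgo1-/+. Their SE ran from 0.25 for Il33 to 0.70 for Rora on the log2 scale.

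**Figure D3:**
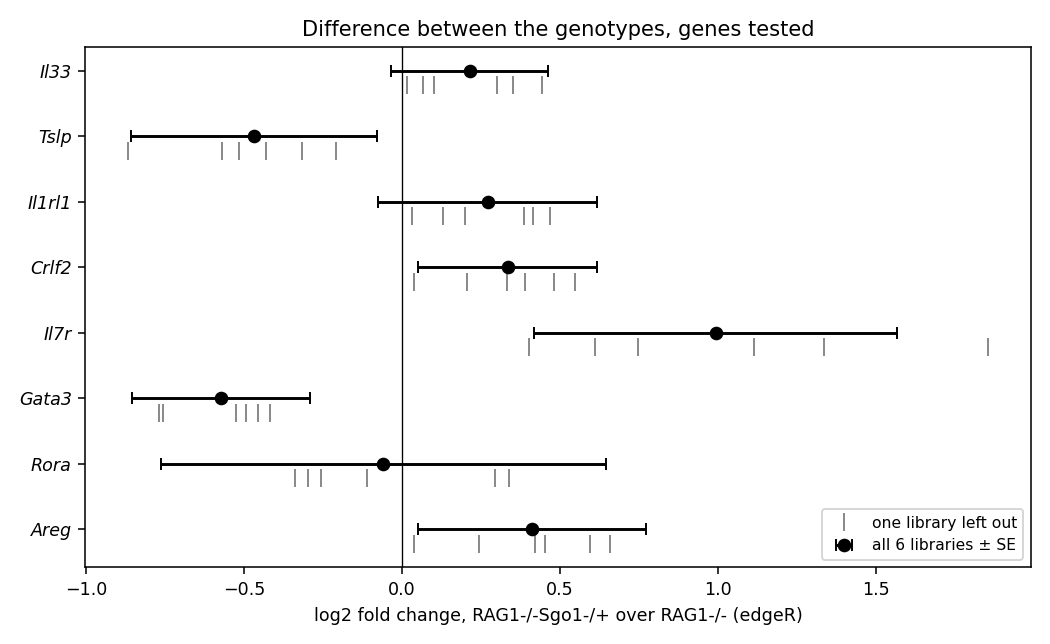
Points give the log2 fold change of the 8 tested genes in RAG1-/-Sgo1-/+ over RAG1-/- (horizontal axis) with bars for ± SE, and grey ticks give the value with 1 library left out in turn. Gata3 stays below 0 (-0.77 to -0.42), Il7r spreads from 0.40 to 1.85, and the ticks of Rora fall on both sides of 0.

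The rest of the pathway was read from lists written for this purpose. Alarmin signalling (14 genes) carries the signal from receptors to the nucleus, and 0 of its 13 tested genes passed an unadjusted P under 0.05, with a median log2 fold change of 0.028, where that of all tested genes was 0.034. Traf6, the ubiquitin ligase used by ST2, had the lowest P of that list and, with Irak1, was 1 of 2 genes with the groups apart and higher, where 6.24% of all tested genes were. It stood at 38.6, 41.4 and 39.2 CPM in RAG1-/- and 45.7, 57.2 and 44.0 CPM in RAG1-/-Sgo1-/+. Its log2 fold change came to 0.31, and to 0.17 without replicate 5 (SE 0.14 with all libraries, unadjusted P = 0.0582 and adjusted P = 0.832 in edgeR).

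Of 18 tested genes of innate lymphoid identity and neuropeptide response, 2 passed an unadjusted P under 0.05, both lower in RAG1-/-Sgo1-/+, where 2.52% of all tested genes were lower by this rule. They were Ets1, a transcription factor of lymphoid cells and endothelium at 142, 189 and 173 CPM against 130, 134 and 109 CPM (log2 fold change -0.43, SE 0.15), and Calcrl, a receptor chain for adrenomedullin and CGRP of lung endothelium, at 1065, 893 and 946 CPM against 813, 773 and 519 CPM (log2 fold change -0.46, SE 0.18). Without replicate 6 these were -0.34 and -0.29. Both had their groups apart and lower, as 5.54% of all tested genes did, and an adjusted P of 0.832 in edgeR. Neither is particular to ILC2. The median of the list was 0.019. Genes closer to ILC2 were scarce: Nmur1, the neuromedin U receptor, had at most 2 reads in a library and Ptgdr2, the prostaglandin D2 receptor, at most 9.

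Among cytokines and receptors of type 2 responses, 8 of 12 genes were tested. At an unadjusted P under 0.05 in edgeR 1 passed as higher, where 3.15% of all tested genes did: Csf2rb2, a signalling chain of the mouse IL-3 receptor. Its level was 11.1, 4.85 and 8.32 CPM for RAG1-/- and 10.1, 12.4 and 32.4 CPM for RAG1-/-Sgo1-/+. The value of replicate 6 stood out, and the log2 fold change of 1.12 (SE 0.45, adjusted P = 0.832) was 0.45 without it. Il13ra2, a decoy receptor of IL-13, had 0 reads in all libraries.

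The genes known to respond to IL-4 and IL-13, or to mark type 2 responses in lung, were read beside the members as a separate list. Of the 15 genes in this list, all tested, 10 passed an unadjusted P under 0.05 as higher in RAG1-/-Sgo1-/+ and 0 as lower, where 3.15% of all tested genes were higher by this rule, and 0 passed the adjusted threshold. The difference was carried by replicate 6. It was the highest library for 12 of the 15 genes (80%), against 25.4% of all tested genes, and for 11 of them it exceeded the next library at least 2-fold, against 2.51%. For 7 genes it was at least 10-fold above the next. The list was chosen with earlier results of these data known, so these shares are a description and not a test.

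Arginase 1 (Arg1) was read 20, 8 and 16 times in the RAG1-/- lungs and 7, 20 and 737 times in the others, which puts replicate 6 at 230 CPM and the others at 1.41 to 3.70 CPM. The chitinase-like Chil4 had 0, 10 and 0 reads against 0, 4 and 1335. Retnla, a secreted product of alternatively activated macrophages and airway epithelium, was at 84.4, 93.1 and 83.8 CPM against 83.6, 133 and 2580 CPM. Replicates 4 and 5 lay close to the RAG1-/- libraries in these genes, and the fitted log2 fold changes (5.17 for Arg1, 8.05 for Chil4 and 3.42 for Retnla) became 0.31, -0.59 and 0.31 without replicate 6. The goblet cell genes Clca1 and Muc5ac were also highest in replicate 6. Clca1 was at 2344 CPM there and 1.62 to 48.9 CPM elsewhere, and Muc5ac at 50.2 against 1.21 to 2.67 CPM. Without replicate 6 the log2 fold change of Muc5ac became -0.059. That of Clca1 turned to -3.31, with 14.0, 48.9 and 2.42 CPM in RAG1-/- against 1.62 and 2.59 CPM in replicates 4 and 5. Ccl22, a chemokine for CCR4-bearing lymphocytes made by dendritic cells and macrophages, was the one gene of the list with its groups apart and higher (Ccl11 was apart and lower), at 8.97, 6.06 and 8.17 CPM against 9.70, 18.2 and 20.3 CPM (log2 fold change 1.03, SE 0.31, adjusted P = 0.832). It was 0.84 without replicate 6. Of all tested genes, 6.24% had groups apart and higher and 5.54% apart and lower.

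Without replicate 6, 2 of the 15 genes passed an unadjusted P under 0.05, Ccl22 as higher and Clca1 as lower (-3.31), and the median log2 fold change of the list moved from 2.47 to -0.14. Without replicate 2 or replicate 3, 6 genes passed, and without replicates 2 and 6 together 2 passed, both lower. In the same replicate 6 the members did not move as one. Il33, Crlf2 and Il7r were at their highest there, which is 3 of the 8 tested members against 25.4% of all tested genes. Tslp was at its lowest, Il1rl1 (8.11 CPM) and Gata3 (11.2 CPM) were inside the range of the other libraries, and Il13 was at 0.

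**Figure D4:**
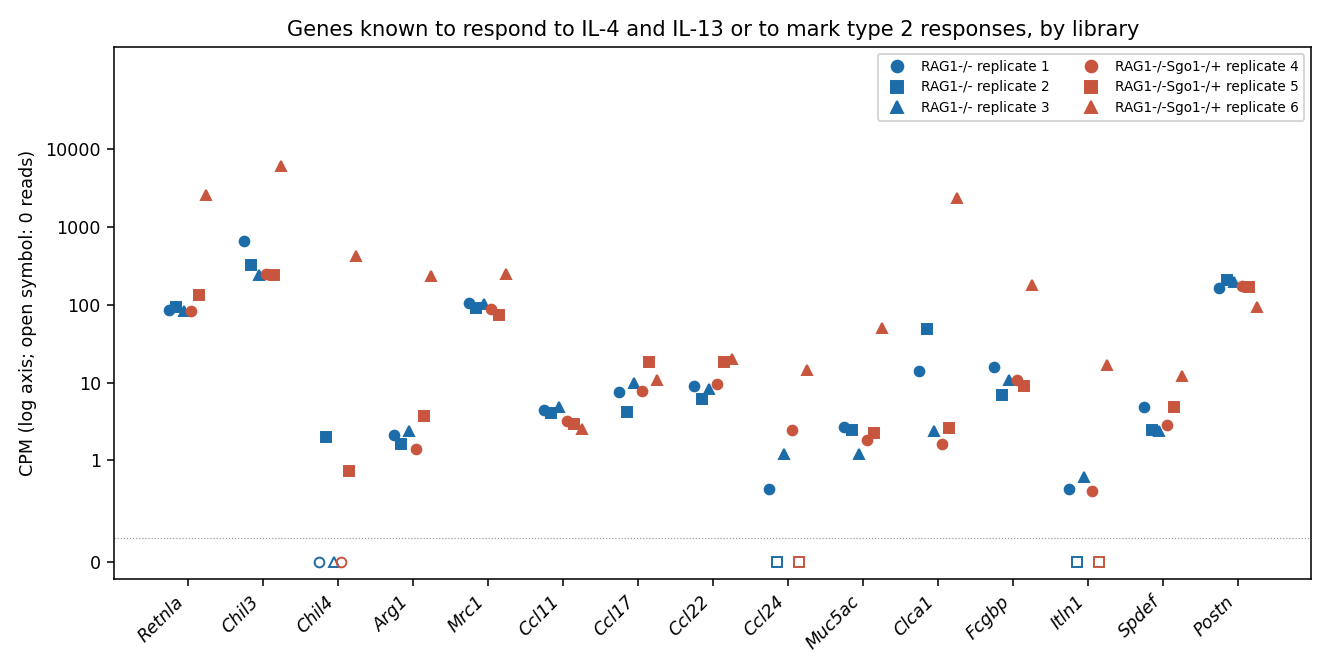
Each column plots the CPM of 1 of 15 type 2 response genes in the 6 libraries on a log axis, with blue for RAG1-/-, red for RAG1-/-Sgo1-/+ and open symbols on the lowest line for 0 reads. The red triangle of replicate 6 is the highest symbol for 12 of the 15 genes and reaches 230 CPM for Arg1, where the other libraries are at 1.41 to 3.70 CPM.

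Markers of other cells that carry ST2 or follow type 2 cytokines were read in the same way. Of 7 eosinophil markers 4 were tested, and at an unadjusted P under 0.05 1 was higher (Ear6) and 1 lower (Siglecf) in RAG1-/-Sgo1-/+. By this rule 3.15% of all tested genes were higher and 2.52% lower, which also stands beside the counts that follow. Epx and Ccr3 had 0 reads in all libraries and Prg2 had 4 in replicate 2 alone. Ear1 and Ear2, by contrast, were read in every library, at 20.6 to 29.5 and 55.4 to 99.2 CPM. Their groups overlapped. Siglecf, shared by eosinophils and alveolar macrophages, was at 9.61, 11.3 and 9.08 CPM in RAG1-/- and 4.44, 5.93 and 6.24 CPM in RAG1-/-Sgo1-/+. The groups were apart, with Siglecf lower in RAG1-/-Sgo1-/+, as were 5.54% of all tested genes. Its log2 fold change was -0.85 with an SE of 0.28 (edgeR, adjusted P = 0.832), or -0.76 without replicate 2 and -0.94 without replicate 6. Ear6 had 22 reads in replicate 6 and 0 to 2 elsewhere. Of the 10 mast cell and basophil markers found in the table, 8 were tested and 0 passed an unadjusted P under 0.05. Their summed level was 350 to 392 CPM in RAG1-/- and 351 to 404 CPM in RAG1-/-Sgo1-/+, most of it from Hdc, Gata2 and Kit, which other lung cells also express, while the basophil protease Mcpt8 had at most 2 reads in a library. The lowest P of that list was that of Fcer1a, with 6, 2 and 4 reads against 2, 0 and 0. Of 4 tested ILC3 markers 0 passed an unadjusted P under 0.05, Ahr having the lowest, and Il17a was at 0. Among airway epithelial markers 1 of 7 passed an unadjusted P under 0.05, the ciliated cell factor Foxj1, at 286, 165 and 169 CPM against 241, 383 and 301 CPM (log2 fold change 0.58, SE 0.24, adjusted P = 0.832). It was 0.39 without replicate 5 and 0.88 without replicate 1. Of the natural killer and ILC1 markers 1 of 7 passed, Gzma, a granule protease, at 26.5, 7.68 and 18.5 CPM against 9.29, 7.04 and 4.37 CPM (log2 fold change -1.34, SE 0.43, adjusted P = 0.832). It was -1.68 without replicate 2, -1.13 without replicate 6 and -0.91 without replicate 1. The part of any of these cells in the members' levels was not tested.

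For the 7 members with at least 100 summed reads, the genes with the most similar profile of log2 CPM over the 6 libraries were looked up among 13800 genes. They were Smap1 and Tmem37 for Il33, Gpm6b and Mbd5 for Tslp, Wdr26 and an Entrez entry without symbol for Il1rl1, Rrm2 and Tgs1 for Crlf2, Lclat1 and Mtx3 for Il7r, Mtss1 and Cops2 for Gata3, and Ccdc117 and Stau1 for Areg. No member was the closest match of another. Pearson r lay between 0.986 and 0.996. The points share library depth, and with 6 of them and so many candidates the pairs are given as a description only.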

How the data were processed

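Lung RNA of 6 mice was sequenced as paired ends on an Illumina MiSeq (TruSeq V2 kit). The authors deposited read counts per Entrez gene, as whole numbers without normalization, made in GeneSifter on mouse genome build 37.2; their processing notes name BWA and edgeR. Multi-mapping rules and versions are not given in the sources used here. Each library's column appears under 2 headings with identical values. The first was used, and the other 6 columns were not. Even numbers make up 63.5% to 69.0% of nonzero counts, so both ends of a pair may have been counted, which was not settled, and floors cover counting error only. The authors' comparison table (group means, ratios, P-values) was not used.

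Groups follow the labels. Genes with at least 10 summed counts were fitted in edgeR 4.0.16 (R 4.3.3, quasi-likelihood F-test), the total count as library size and Benjamini-Hochberg adjustment over all tested genes. SE values were derived from the F statistic of each test. Workflows were tested on simulated data. Symbols came from a RefSeq table by Entrez ID (93.0% matched), merged exon lengths from GENCODE M21 and promoters from RefSeq, both on GRCm38. Alternatives were TMM, DESeq2 1.42.0 size factors and test, limma-voom 3.58.1, the edgeR exact test, other filters, halved counts, thinning to 3205822 reads, and each library left out. Leaving out replicates 2 and 6 together was added after the data were seen. A single value was also compared by two-sided exact permutation of CPM, whose smallest P is 0.1. P-values of edgeR set the difference between groups against the spread among these 6 mice, moderated over all tested genes. Members and lists were chosen with earlier results of these data known. Named were all members, the genes of each list with unadjusted P under 0.05 (at most 4) or else the lowest P, and the 2 most similar profiles. Genes singled out beyond this rule, such as Clca1, Muc5ac, Il1rap, Nmur1, Ptgdr2, Klrg1, Il2ra, Icos, Thy1, Il4, Il9, Il25, Il13ra2, Csf2, Irak1, Ccl11, Hdc, Gata2, Kit, Il17a, Cd8a, Trat1, Epx, Ccr3, Prg2, Ear1, Ear2 and Mcpt8, were chosen after their values were seen. Some list genes are not reported here.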

Additional observations from a re-analysis of the deposited data

How the results depend on the processing

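No member passed the adjusted threshold under any alternative. Of 127 values recomputed for the 8 tested members, 122 kept their direction and 5 turned: Il1rl1 was at -0.12 when every library was thinned to the smallest, Rora at 0.29 and 0.34 without replicate 3 or 5 (-0.34 to 0.34 over all single libraries left out), and Il33 at -0.13 and Crlf2 at -0.091 without replicates 2 and 6 together, an alternative chosen after the data were seen. The cause was not tested. Without replicate 1, the only library with abundant Xist, all 8 tested members kept their direction. Their log2 fold changes were then 0.35 for Il33, -0.57 for Tslp, 0.031 for Il1rl1 and 0.33 for Crlf2. Those of Il7r, Gata3, Rora and Areg were 0.61, -0.76, -0.11 and 0.42. With single libraries left out, 0 to 1 genes were called, 179 to 326 passed an unadjusted P under 0.05 at 2-fold (233 with all libraries), 10 to 24 list genes other than members passed an unadjusted P under 0.05 (22 with all), and 0 to 1 members did, Il7r without replicate 2 or 4 and Gata3 without replicate 1 or 6. Without replicates 2 and 6 together, 9 list genes and 1 member (Il7r) passed. The filterByExpr filter gave 118 genes at 2-fold and 14 list genes, limma-voom 151 and 6, and DESeq2 152 and 9, with 1 gene called at the adjusted threshold by DESeq2. The type 2 target genes past an unadjusted P under 0.05 numbered 2 to 12 with single libraries left out, and 2 without replicate 6. Il13 has no reads and could not be fitted, and for Il5, under the filter and at most 2 reads in a library, no fold is given under any setting. The labels give no pairing of mice between the groups, so no paired analysis was run. Rora, Il5 and Il13 have the fewest reads of the members.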
